A study of Mus musculus with 6 samples.

Results

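The estradiol-gained regions outside genes were 659 sites where estrogen receptor alpha (ERα) had peaks after estradiol and none after vehicle, of 15334 regions outside genes and 39374 regions in all. ERα is a nuclear receptor that binds DNA as a dimer when estradiol occupies it. Much of its binding in mammalian cells lies at enhancers far from gene starts, and its classic DNA motif, the estrogen response element, is an inverted repeat. In limbic tissue, neurons that carry ERα take part in reproductive, social and metabolic behaviour. The regions described here were chosen by their peaks: a peak in at least 2 of the 3 estradiol libraries, none in the 3 vehicle libraries, no overlap with a protein-coding gene and more than 1 kb to either end of every such gene. The choice used the presence of peaks, so counts and heights of these peaks are given as a description without a test.

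The peaks came from CUT&RUN, in which an antibody tethers a nuclease to chromatin in isolated nuclei and the released fragments are sequenced. The estradiol group (3 libraries) were adult C57/BL6 males given 5 µg estradiol benzoate under the skin, and the vehicle group (3 libraries) were males given corn oil. All males had been gonadectomized at 10 to 12 weeks of age, were treated 3 weeks later, and gave nuclei of the limbic system 4 hours after treatment. The labels of both replicate 3 libraries carry no strain tag and give the group in the title alone. The labels do not tell if the libraries within a group are of different animals, so p-values measure a spread between libraries that may be technical. Nuclei of all cell types were pooled in the tissue, so more cells with a bound site and more binding per cell cannot be told apart.

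The lists held 11082, 14123 and 17558 peaks in estradiol replicates 1, 2 and 3, and 5421, 13717 and 20541 peaks in vehicle replicates 1, 2 and 3. At the ends of 5 neuronal marker genes (Rbfox3, Snap25, Syt1, Tubb3 and Stmn2), peaks lay at 1, 4 and 3 genes in the estradiol lists and at 1, 2 and 4 in the vehicle lists. No list had a peak at the ends of the 3 microglial, 2 endothelial or 2 glutamatergic markers, and 0 to 2 of 6 genes of other tissues had one. A peak at a gene end is not a measure of expression. The number of fragments at each peak summit, estimated from the deposited fold and p-value, was 4 for the smallest peak and 6 at the median in every library, so a missing peak does not show missing binding.

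The sequence of 3 of the 659 regions could be read, since these lie whole inside RefSeq promoter windows of long non-coding RNA genes (build GRCm38.p6, the coordinates of mm10). They are shown on the plus strand because 1 of them holds a perfect estrogen response element. The Gm31295 region lies on chromosome 4 at 136387313 to 136387485, the Gm32596 region on chromosome 16 at 13159285 to 13159416, and the Gm39311 region on chromosome 9 at 23581186 to 23581224. Capitals mark the estrogen response element (GGTCA and TGACC with 3 bases between them) in the first and GAGGG, the reverse complement of the CTCF core CCCTC, in the last.
Gm31295 region: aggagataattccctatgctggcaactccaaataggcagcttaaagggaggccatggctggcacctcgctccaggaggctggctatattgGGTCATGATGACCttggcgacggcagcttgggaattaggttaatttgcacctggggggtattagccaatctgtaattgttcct
Gm32596 region: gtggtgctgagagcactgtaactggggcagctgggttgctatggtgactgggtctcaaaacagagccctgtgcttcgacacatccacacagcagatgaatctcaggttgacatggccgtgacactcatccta
Gm39311 region: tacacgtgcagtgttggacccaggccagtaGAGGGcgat

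The Gm31295 region had peaks in all 3 estradiol libraries, with −log10 q (the authors' peak significance, 2 at the calling threshold) of 7.89, 6.15 and 16.0 in replicates 1, 2 and 3, and no peak in a vehicle library. Its palindrome occupies positions 91 to 103 of the region, at 136387403 to 136387415. The summits lay 38 bp before, 49 bp after and 24 bp before the centre of the palindrome. Its nearest protein-coding gene is Htr1d, a serotonin receptor, 36.0 kb away. The same stretch of all 32851 RefSeq promoter windows held the palindrome on either strand in 11 cases (0.0335%). A single arm (GGTCA or TGACC, both of which are part of the palindrome) was held by 26.2% of them.

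The Gm32596 region, 7.28 kb from the DNA repair nuclease gene Ercc4, had −log10 q of 6.83 and 3.31 in estradiol replicates 2 and 3. The palindrome, its single arms, the AP-1 motif TGANTCA and the CTCF core were not in this window. The Gm39311 region, 96.0 kb from Bmper, a regulator of bone morphogenetic proteins, had −log10 q of 2.73 and 3.56 in estradiol replicates 2 and 3. It held the CTCF core, as did 15.9% of promoter windows over the same stretch, and no other of these motifs. Among all regions outside genes that lie whole in promoter windows, the palindrome was found in 1 of 3 estradiol-gained regions, 1 of 49 held by 1 estradiol library alone, 0 of 7 vehicle-gained, 0 of 53 held by 1 vehicle library alone, 0 of 12 held by all 6 libraries and 0 of 74 others. With so few regions these counts are a description.

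Of the 659 regions, 135 had a peak in all 3 estradiol libraries, and 524 in 2 of them. Replicates 2 and 3 shared 316 of the 524, against 123 shared by replicates 1 and 3 and 85 by replicates 1 and 2. The estradiol-gained regions were 4.30% of the regions outside genes. The mirror rule, a peak in at least 2 vehicle libraries and in no estradiol library, was met by 435 regions (2.84%). With all 3 libraries of a group required, there were 135 estradiol-gained (0.880%) and 19 vehicle-gained (0.124%) regions. These last counts are not on an equal footing. A region held by all 3 vehicle libraries needs a peak in vehicle replicate 1, with 5421 peaks, while the shortest estradiol list had 11082. With lists of equal length and at least 2 libraries required, 191 regions were estradiol-gained and 125 vehicle-gained.

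**Figure D1:**
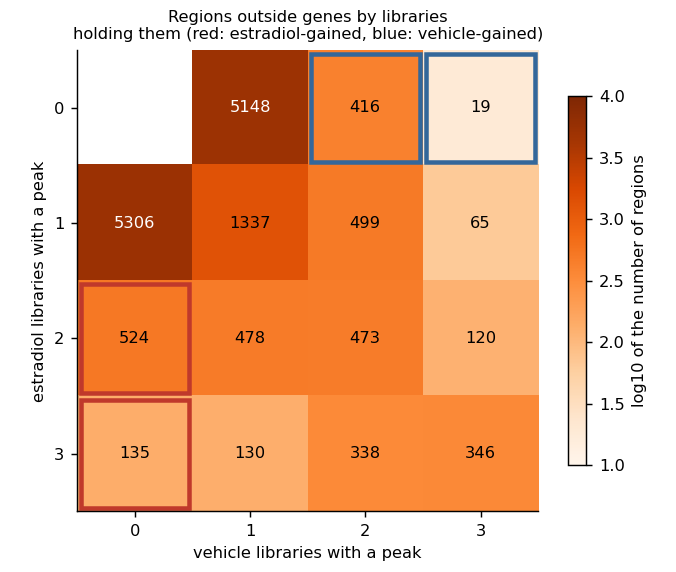
Number of regions outside genes by how many estradiol libraries (rows) and vehicle libraries (columns) held a peak, coloured on a log10 scale. The estradiol-gained cells (red outline) hold 135 and 524 regions and the vehicle-gained cells (blue outline) 19 and 416, while most regions were held by 1 library.

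These counts depend on single libraries. The estradiol-gained count was 254 without estradiol replicate 2 and 213 without estradiol replicate 3, where both remaining libraries had to hold a peak, and 1065 without vehicle replicate 3. With estradiol replicate 1, 2 or 3 left out, more regions were vehicle-gained (556, 584 and 723) than estradiol-gained (451, 254 and 213). With vehicle replicate 1, 2 or 3 left out, fewer were vehicle-gained (373, 62 and 38) than estradiol-gained (675, 826 and 1065). Leaving out a library makes the rule stricter for its own group and looser for the other by construction. These orders therefore cannot tell how far the excess rests on a single library. At the edge of the rule, 130 regions had peaks in 3 estradiol libraries and 1 vehicle library. The one highest by its lowest percentile in the estradiol libraries, 7.23 kb from Slc13a1, a sulfate transporter gene, had 14, 18 and 27 fragments in the estradiol libraries and 6 in vehicle replicate 2. By distance, the region just inside lay 1081 bp from Plekha3 and the one just outside 947 bp from Pip4k2a.

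The estradiol-gained peaks stood on few fragments at most regions and on many at some. In the libraries that held them the median was 5, 6 and 6 fragments in estradiol replicates 1, 2 and 3, and the highest 27, 32 and 52. The median in regions outside genes held by all 6 libraries was 9, 10 and 13 fragments in the same libraries. Every holding peak reached a −log10 q of 5 in 119 estradiol-gained and 35 vehicle-gained regions. At 7 the counts were 37 and 3, and at 10 they were 10 and 0. Leaving out vehicle replicate 1, the shortest list, gave 123 and 35, 38 and 3, and 10 and 0. Of the 19 regions held by all 3 vehicle libraries, the top 2 by their lowest percentile lay near Kcnh8, a potassium channel gene (9, 6 and 6 fragments in vehicle replicates 1, 2 and 3), and Col6a1, a collagen gene (6, 7 and 6).

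The highest-ranked regions lay far from genes or next to genes of varied roles. First by rank was a 400 bp region on chromosome 16 (28089439 to 28089838), 67.9 kb from Fgf12, an intracellular homologous factor of sodium channels, with 25, 32 and 52 summit fragments in estradiol replicates 1, 2 and 3. The next lay 463 kb from 4930591A17Rik, with 23, 27 and 28 fragments in estradiol replicates 1, 2 and 3. The region 28.1 kb from Fam124a had 27, 20 and 33 fragments, so that the order of the replicates differed between regions. The region 541 kb from Aadat, a kynurenine aminotransferase, had 11, 23 and 25 fragments. The region 814 kb from Vrk2, a serine-threonine kinase, had 16, 11 and 18 fragments. The ranking used the lowest percentile of the 3 libraries, so all 3 stood well above the smallest called summit at these sites by choice.

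Lower in the top 15 were regions near Mturn, which acts in neuronal differentiation in Xenopus, and Sel1l, an adaptor of protein degradation at the endoplasmic reticulum. The Mturn region (chromosome 6, 54759704 to 54759807, 55.8 kb away) had −log10 q of 14.4, 11.9 and 12.3 in estradiol replicates 1, 2 and 3. The Sel1l region (chromosome 12, 92152409 to 92152742, 303 kb away) had 9.77, 29.4 and 18.1. Further regions lay 5.88 kb from Pdzrn4, 240.0 kb from Meis2, a homeobox factor of forebrain development, and 117 kb from Phf3, which binds RNA polymerase II. The Usp36 region, 4.87 kb from this nucleolar deubiquitinase gene, had −log10 q of 11.1, 9.27 and 22.9. The regions near Pum3, a Pumilio-family RNA-binding protein, and Rcn1, a calcium-binding protein of the endoplasmic reticulum, had 9.64, 11.7 and 8.68 and 7.94, 23.4 and 30.3. Replicate 3 was the highest in 11 of the 15 regions.

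**Figure D2:**
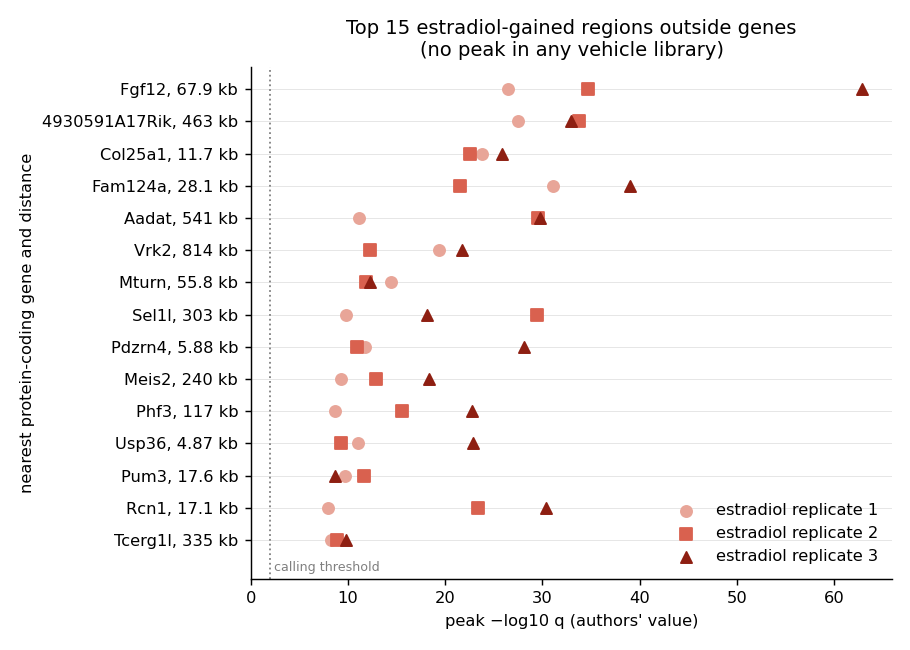
The −log10 q of the peak in estradiol replicates 1, 2 and 3 (points) for the 15 top-ranked estradiol-gained regions outside genes held by all 3 estradiol libraries, labelled by nearest gene and distance. The lowest point is at 7.94, above the calling threshold of 2 (dotted line).

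Regions held by 2 estradiol libraries could also be high. The strongest lay on chromosome 16 at 95811219 to 95811416, 90.2 kb from Ets2, an ETS-family transcription factor, with 18 and 22 fragments in estradiol replicates 2 and 3 and no peak in replicate 1. A neighbouring region 111 kb from Ets2 had 12, 18 and 19 fragments in the estradiol libraries but also 6 in vehicle replicate 2, and so fell outside the rule. The next lay 272 kb from Zmiz1, a transcriptional coactivator, with 19 and 18 fragments, and others lay near Ptp4a1, a phosphatase, Gmnc, a regulator of multiciliated cells, and Chn1, a Rac GTPase-activating protein. The peak was missing in replicate 1, the shortest estradiol list, in all 5. At the low end, the region 465 kb from Apob had 4, 4 and 5 fragments, and one 78.5 kb from 4930591A17Rik had 4, 5 and 4.

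The next question was whether regions gained in some libraries were also gained in libraries that played no part in choosing them. Regions outside genes were chosen in 2 replicate numbers (a peak in both estradiol lists and in neither vehicle list) and read in the lists of the third number. With number 1 left out, 139 of 459 regions (30.3%) had a peak in the estradiol library and 8 (1.74%) in the vehicle library. With number 2 left out, 166 of 335 (49.6%) had one in the estradiol library and 81 (24.2%) in the vehicle library. With number 3 left out, 212 of 356 (59.6%) had one in the estradiol library and 143 (40.2%) in the vehicle library. The estradiol library held more of them in 3 of 3 readings, by 24.4 ± 4.65 percentage points (SD, n = 3; exact paired permutation p = 0.25, the smallest possible). The 3 readings are not independent, since the libraries read in one helped to choose the regions of the others, and the numbers did not otherwise pair the libraries.

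List length also moved with these readings, since vehicle replicate 1 was the shortest list and vehicle replicate 3 the longest. All other regions outside genes were held by 14.8%, 19.5% and 28.4% in the estradiol libraries of numbers 1, 2 and 3, and by 5.96%, 20.9% and 32.7% in the vehicle libraries. With lists of equal length the difference for estradiol-gained regions was 33.5 percentage points, positive in 3 of 3. With peaks covering at least 50% of a region it was 12.7 points, also positive in 3 of 3. Regions gained in vehicle libraries were held by 22.1%, 29.5% and 52.5% in the estradiol libraries left out and by 7.52%, 38.6% and 62.5% in the vehicle libraries (mean difference -1.49 points, exact paired permutation p = 1, with 0.25 the smallest possible). Their vehicle library held more of them for numbers 2 and 3 (-9.09 and -10.0 points) and fewer for number 1 (14.6 points), whose vehicle list was the shortest.

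The reading differed more at higher peaks. With a −log10 q of at least 10 in both choosing libraries, 21 of 23, 12 of 12 and 9 of 9 estradiol-gained regions had a peak in the estradiol library of number 1, 2 and 3. In the vehicle libraries, 0, 1 and 1 of them had one. With at least 5, the estradiol libraries held 74 of 151, 49 of 57 and 58 of 66, and the vehicle libraries 2, 15 and 21. The mean difference was 54.5 ± 6.14 points at 5 and 90.6 ± 1.51 points at 10 (SD, n = 3; exact paired permutation p = 0.25 for each, the smallest possible). These heights were set after seeing the data. For vehicle-gained regions chosen at 5 there were 53, 3 and 3 regions, with a mean difference of -14.0 ± 47.2 points (SD, n = 3), and at 10 there were 0, so the mirror comparison could not be made there.

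**Figure D3:**
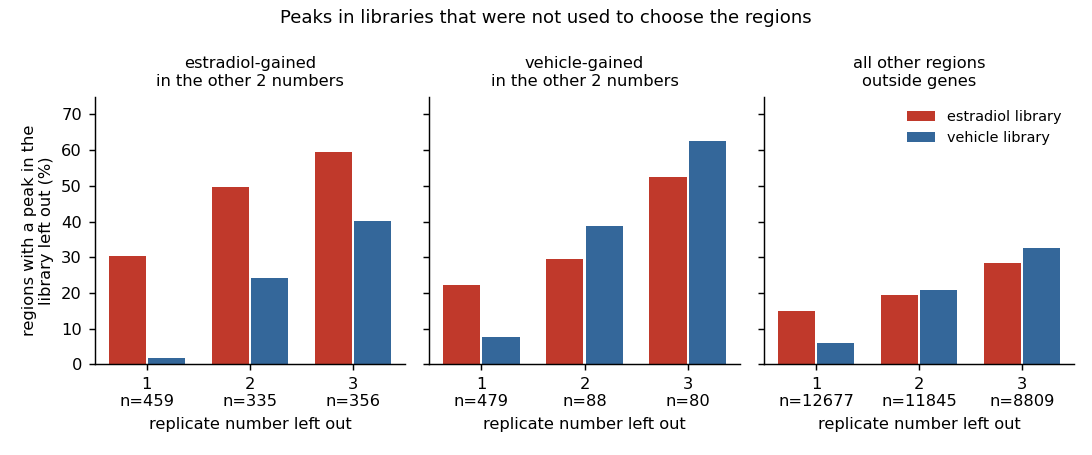
Percentage of regions with a peak in the estradiol (red) and vehicle (blue) library of the replicate number left out of the choice, for regions estradiol-gained in the other numbers, regions vehicle-gained in the other numbers and all other regions outside genes (n below each pair of bars). For the first class the estradiol bar is higher for all 3 numbers, at 30.3%, 49.6% and 59.6% against 1.74%, 24.2% and 40.2%.

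Estradiol-gained regions lay farther from genes than vehicle-gained ones. Their median distance to the nearest protein-coding gene was 60.9 kb (quartiles 19.9 and 185 kb), against 21.5 kb for vehicle-gained regions (7.21 and 72.2 kb). Within 10 kb of a gene lay 15.3% of estradiol-gained and 33.3% of vehicle-gained regions, and beyond 100 kb lay 36.9% and 20.7%. Farther than 500 kb from any gene were 41 estradiol-gained regions. The median difference of 39.3 kb was positive in all 14 other settings tried, which reuse the same peaks and are not independent. It was smallest without vehicle replicate 3, at 17.4 kb (45.4 and 28.0 kb), where 38 regions were vehicle-gained. It was 25.4 kb with a −log10 q of at least 5. With 3 of 3 libraries required it was 69.8 kb, where 19 regions were vehicle-gained. Regions held by all 6 libraries had a median of 18.8 kb. Regions held by 1 library, however, had one of 54.9 kb, close to the estradiol-gained value.

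Over libraries, which is the level at which the groups can be tested, the difference was small. The median distance of all regions outside genes held by a library was 39.2, 42.4 and 39.6 kb in estradiol replicates 1, 2 and 3 and 38.6, 35.6 and 29.1 kb in vehicle replicates 1, 2 and 3. The groups did not overlap (means 40.4 ± 1.76 and 34.4 ± 4.88 kb, SD, n = 3 each; exact permutation p = 0.1, two-sided, the smallest possible). The difference was 3.70 kb within replicates 1 and 2 and 10.5 kb in replicate 3. Regions held by a single library, which the choice did not use, had medians of 68.8, 66.8 and 60.6 kb in the estradiol libraries and 87.9, 65.9 and 35.2 kb in the vehicle libraries (exact permutation p = 0.8). The share of a library's peaks that lay outside genes was 30.8% ± 2.63 with estradiol and 29.7% ± 3.00 with vehicle (SD, n = 3 each; two-sided exact permutation p = 0.6). It was higher with estradiol by 0.756 points within replicates 1 and 2 and by 1.79 points in replicate 3, and it turned without estradiol replicate 3 (-0.412 points), without vehicle replicate 1 (-0.587 points) and with lists of equal length (-1.60 points).

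**Figure D4:**
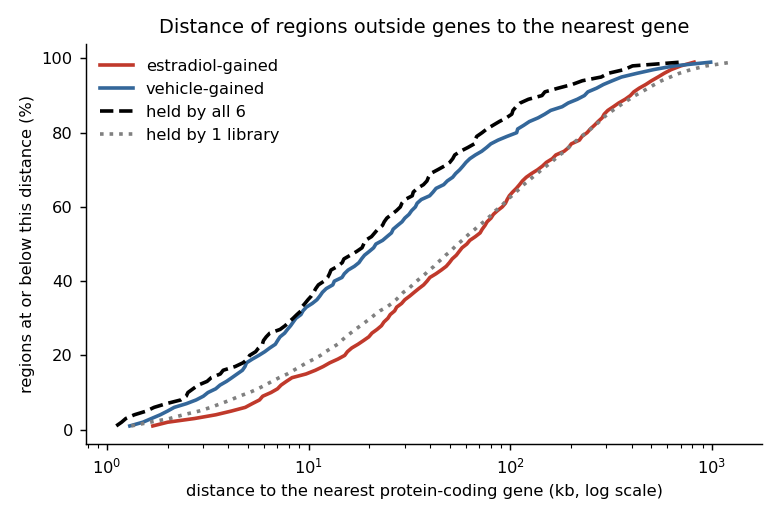
Cumulative percentage of regions outside genes by distance to the nearest protein-coding gene (kb, log axis), drawn from percentiles. The estradiol-gained curve (red, median 60.9 kb) runs to the right of the vehicle-gained curve (blue, 21.5 kb) and of regions held by all 6 libraries (black, 18.8 kb), and near that of regions held by 1 library (grey, 54.9 kb).

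The regions were short and their summits close together. The median width was 99 bp (quartiles 69.5 and 152 bp), against 73 bp for vehicle-gained regions and 184 bp for regions held by all 6 libraries. The summits of the estradiol libraries within a region were 24 bp apart at the median, and within 25 bp in 342 of 659 regions (51.9%). For vehicle-gained regions the median was 16 bp, in narrower regions. A vehicle peak lay within 500 bp of 73 estradiol-gained regions (11.1%), and an estradiol peak within 500 bp of 60 vehicle-gained regions (13.8%). Of the 135 regions held by all 3 estradiol libraries, 8 (5.93%) had a vehicle peak that near.

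Overlap with long non-coding RNA genes was near that of other regions outside protein-coding genes. The span of a long non-coding RNA gene overlapped 131 of 659 (19.9%), against 18.4% of all other regions outside genes. The start of such a gene lay within 1 kb of 20 (3.03%), against 4.49% of the others. Regions held by all 6 libraries had shares of 27.2% and 13.6%. Of the 513 estradiol-gained regions whose nearest gene has a strand in the RefSeq promoter table, 274 (53.4%) lay on its 5' side, where the share for all other regions outside genes was 52.6%.

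The estradiol-gained regions were spread over many genes. Within 500 kb, 533 of 21887 protein-coding genes (2.44%) were the nearest gene to at least 1 of them, and 397 (1.81%) to a vehicle-gained region. For 456 genes there was 1 region, for 69 there were 2 and for 8 there were 3 (Diaph3, Fgf12, Fhit, Gpd2, Nox3, Snx7, Tecrl and Tmpo). Nearness to a gene does not show that a region acts on it. Of these genes, 50 also held an estradiol-gained region inside their span or within 1 kb of it, which was 9.38% of the 533 and 6.86% of the 729 genes with such an inner region. Among them were Grin2b, Grm5, Nrip1 and Col25a1.

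Around Fgf12 all 3 regions lay on the 3' side of the gene. The top-ranked one lay 67.9 kb away, and another on chromosome 16 at 27907951 to 27908178, 250 kb away, had 6, 17 and 14 fragments in estradiol replicates 1, 2 and 3. The closest, at 28132404 to 28132672 and 25.1 kb away, had 14 and 9 fragments in replicates 2 and 3 and no peak in replicate 1. No other member of the list of 18 fibroblast growth factors and receptors was nearest to an estradiol-gained region. The 3 regions were 3 of the 31 regions outside genes assigned to this list (9.68%), against 4.30% for all genes.

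Receptors for glutamate and GABA, the main fast transmitters of the brain, were the list with the most genes relative to its size. An estradiol-gained region was nearest to 8 of 31 genes (25.8%, against 2.44% of all genes) and a vehicle-gained region to 1 (Gria3), against 1.81% of all genes. Of the 98 regions outside genes assigned to the list, 11 were estradiol-gained (11.2%), against 4.30% over all genes. Of the same 98, 1 was vehicle-gained, against 420 of 14357 over all genes. The count of genes was 7, 4 and 1 without estradiol replicate 1, 2 and 3, where both remaining estradiol libraries had to hold a peak. The members were chosen with earlier results of these data known, and the list was not tested.

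By role, Grik1, a kainate receptor subunit, had the pair of regions held by all 3 estradiol libraries. They lay 96.5 and 83.9 kb away with 6, 6 and 9 and 4, 6 and 8 fragments. The AMPA receptor subunit Gria1 had a region 72.7 kb away with 11 and 9 fragments in replicates 2 and 3, and another with 4 fragments in each of replicates 1 and 3. Grin2b, an NMDA receptor subunit, had a region 50.6 kb away with 8 and 14 fragments in replicates 2 and 3 and another 130 kb away with 5 and 5 in replicates 1 and 3. The metabotropic receptor gene Grm5 had one 9.92 kb away with 5 and 13 fragments. Gabra2, a GABA-A receptor subunit, had one 74.4 kb away with 9 and 9 fragments in replicates 2 and 3. Grid1, Grm8 and Gria3 had regions of 4 to 6 fragments, which lay 20.5, 377 and 479 kb away.

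Genes induced by estrogen in other tissues were nearest to 5 estradiol-gained regions. These were 10.2% of the 49 regions outside genes assigned to the list, against 4.30% for all genes. None of the 49 was vehicle-gained, against 420 of 14357 over all genes, a share too small to read the absence in 49 regions. The genes were Pgr, Myc, Nrip1 and Gata3 (4 of 28, 14.3%, against 2.44% of all genes). Pgr, the progesterone receptor, had regions 1.83 kb and 60.9 kb away, with 5, 7 and 8 and 4, 6 and 7 fragments in estradiol replicates 1, 2 and 3. The Myc region lay 305 kb from this growth regulator, and had 10, 8 and 21 fragments. Nrip1, a corepressor of nuclear receptors, had a region 86.4 kb away with 5 and 6 fragments in replicates 2 and 3, and Gata3, a transcription factor, one 39.5 kb away with 6 and 4 in replicates 1 and 3. The count was 2 genes without estradiol replicate 3. Of 24 hormone receptor genes, Pgr and Rxra, a partner of many nuclear receptors, had regions, and the Rxra region held 6 and 4 fragments in replicates 1 and 3. Their 3 regions were 4.92% of the 61 assigned to the list, close to the 4.30% for all genes.

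Among ion channels and their auxiliary subunits, 4 of 34 genes had 5 regions, which was 6.58% of the 76 assigned to the list, against 4.30% for all genes. A further 1 of the 76, nearest to Kcnh8, was vehicle-gained, against 420 of 14357 for all genes. Kcnn2, a calcium-activated potassium channel, had one 95.6 kb away with 9, 9 and 17 fragments and a second 122 kb away with 7 and 13 in replicates 2 and 3. Cacna2d3, a calcium channel subunit, had one with 6 and 12 fragments in replicates 2 and 3, and the sodium channel genes Scn2a and Scn3a had regions of 4 to 9 fragments. Neuropeptide genes with a region were Trh, which encodes thyrotropin-releasing hormone (5, 15 and 14 fragments, 49.5 kb away), Tac1, the source of substance P, and Pnoc, the source of nociceptin (3 of 30 genes). These 3 were 8.57% of the 35 regions outside genes assigned to the neuropeptide list, against 4.30% for all genes. Of the 35, 1, nearest to Nms, was vehicle-gained, against 420 of 14357 for all genes. Of 69 adhesion and axon guidance genes 10 had regions, but these were 4.91% of 224 regions, close to the value for all genes, and Pcdh8 alone was held by all 3 estradiol libraries.

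In the lists of transcription factors, energy balance, immediate early and clock genes the share was near or below the value for all genes. Transcription factors of limbic and hypothalamic neurons had 3 of 147 regions (2.04%), among them the Meis2 region described above. The melanocortin and energy balance list had 1 of 32 (3.13%), 80.9 kb from Npy2r, a neuropeptide Y receptor, with 6 and 8 fragments in replicates 2 and 3. Immediate early genes had 2 of 38 (5.26%), at Fosb and Nr4a3, and circadian clock genes 0 of 20. Of these 20, 2 were vehicle-gained, nearest to Arntl and Cry1, against 420 of 14357 for all genes. With so few regions, the absence of estradiol-gained ones cannot be told from the value for all genes. Markers of glia, vessels and other tissues, in contrast, had the highest estradiol-gained share of the 12 lists, above the glutamate and GABA receptors. Their share was 3 of 25 regions (12.0%). Of these, 2 lay 465 kb and 199.7 kb from Apob, a liver lipoprotein gene that was also nearest to a vehicle-gained region, at 4 to 5 fragments, and 1 lay 71.6 kb from Cldn5, an endothelial junction gene.

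**Figure D5:**
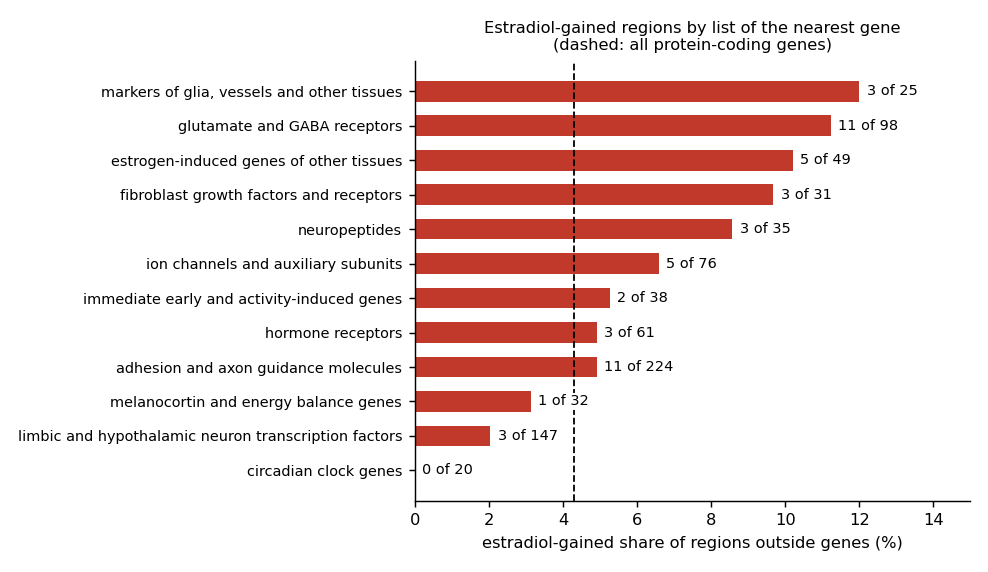
Estradiol-gained share of the regions outside genes assigned to each gene list (bars, with counts), with the share over all protein-coding genes as a dashed line at 4.30%. Markers of glia, vessels and other tissues (3 of 25), glutamate and GABA receptors (11 of 98) and estrogen-induced genes (5 of 49) lie highest above the line. Circadian clock genes (0 of 20) lie below it, with too few regions to tell the absence from the line.

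Some of the regions lay close to one another. Runs of at least 2 within 100 kb held 119 of 659 estradiol-gained regions (18.1%) and 56 of 435 vehicle-gained regions (12.9%), with 3 runs of 3 among estradiol-gained and 0 among vehicle-gained regions. Larger sets of regions form more such runs, so these shares cannot be compared directly. The 3 runs were nearest to Nox3, an NADPH oxidase of the inner ear, to Pabpc6 and Qk, and to Gpd2. Qk is an RNA-binding protein of glia and Gpd2 a mitochondrial glycerol-phosphate dehydrogenase. The Nox3 regions lay 312, 333 and 372 kb from the gene. The run between Pabpc6 and Qk had a region 237 kb from Pabpc6 and others 205 and 143 kb from Qk. The Gpd2 regions lay 80.8 to 147 kb away. The Nox3 run spanned 60.3 kb, with 8 and 9, 8 and 7, and 4 and 6 fragments in estradiol replicates 2 and 3. The run between Pabpc6 and Qk spanned 157 kb, and its region nearest to Qk had 5, 9 and 15 fragments. In the Gpd2 run, a pair of regions had 19 bp between them and would count as 1 under a wider merging distance. The same holds for the estradiol-gained runs nearest to Ccdc50, Snx7, Garem1 and Smc2, which spanned 0.265, 0.266, 0.417 and 0.424 kb. The share in runs includes such pairs, and Snx7 and Gpd2 were among the genes with 3 regions.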

How the data were processed

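ERα CUT&RUN peak lists of 3 estradiol and 3 vehicle libraries were used, 1 per library. Per the submitters' processing notes, cutadapt, Bowtie2, Picard, SAMtools, deepTools and MACS2 were used with build mm10, and their versions and settings are not given in the sources used here. The deposited lists give each peak's fold enrichment over the caller's background, its −log10 p and −log10 q, and a score, as the authors' peak caller wrote them. The score equals 10 times the −log10 q without decimals, in 100% of peaks. The lists do not give read totals, so library depth is unknown. Fragments at each summit were estimated from fold and p-value, assuming a pseudocount of 1 and a Poisson background, and every peak matched a whole number within 0.0002. The estimate rests on that formula.

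Peaks of the 6 lists that overlapped or touched were merged into regions. Genes were the 21887 protein-coding genes of the RefSeq table (GRCm38.p6). Nearest genes were counted and set against the lists within 500 kb, while top-ranked regions were named by their nearest gene at any distance. Groups were taken from the labels. Libraries were compared by exact permutation tests (smallest two-sided p 0.1 for 3 against 3, 0.25 for 3 pairs). The members and gene lists were chosen with earlier results of these data known. Of 344 listed names 342 matched the table. Named regions were the top 15 by lowest percentile of −log10 q in 3 libraries, the top 5 in 2 libraries, those nearest to list genes, runs of 3, the lowest 2 and the top 2 vehicle-gained regions; regions at the edges of the rule were added after their values were seen. Sequences were read only where a region lay whole in a RefSeq promoter window, 250 bases before to 50 after a start, a choice made after seeing the data. A genome was not used here, so the motif share per library was not analysed. Calculations were checked on simulated data and run in Python 3.11.15 with numpy 2.4.6, pandas 2.3.3, SciPy 1.17.1 and Matplotlib 3.10.9. Other merging distances, thresholds, list lengths, gene distances and left-out libraries were tried.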

Additional observations from a re-analysis of the deposited data

How the results depend on the processing

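The estradiol-gained count of 659 became 191 with lists of equal length (5421 peaks), 135 with 3 of 3 libraries required and 253 with a −log10 q of at least 5, a threshold added after seeing the data. The vehicle-gained count of 435 became 125, 19 and 148 under the same settings, and 280 with a −log10 q of at least 3. The number of nearest genes, 533, became 174, 119 and 223. Leaving out 1 library gave 213 to 1065 estradiol-gained regions, 38 to 723 vehicle-gained regions and 193 to 865 genes. The rule is stricter by construction when a library of the gaining group is left out. The difference in the share of peaks outside genes, 1.10 points, turned to -1.60 with lists of equal length, to -0.412 without estradiol replicate 3 and to -0.587 without vehicle replicate 1, within a range of -0.587 to 2.26 over left-out libraries, and the cause was not tested. The held-out difference was positive under all 6 other settings run, from 12.7 to 90.6 points. The replicate numbers did not pair the libraries (r of -0.037, 0.017 and -0.0088 for numbers 1, 2 and 3), and libraries did not all correlate best with their own number. With the replicate block there were 789 estradiol-gained and 500 vehicle-gained regions, 645 genes, and the share differed by 1.10 points (exact paired permutation p = 0.5). Peaks with 4 to 6 fragments limit the precision of single regions, and intervals for depth could not be given. The share of peaks with an estrogen response element per library was not run.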

Other observations

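The estradiol-gained share of regions outside genes was 4.30% over all chromosomes and ranged from 3.05% to 6.65% on single ones. The highest were 46 of 692 regions on chromosome 14 (6.65%) and 36 of 549 on chromosome 16 (6.56%). The lowest were 8 of 262 on chromosome X (3.05%) and 26 of 807 on chromosome 7 (3.22%). Chromosome 16 carries the 3 regions nearest to Fgf12, the top-ranked region among them, both Grik1 regions and the Ets2 and Nrip1 regions. Regions of 1 chromosome are not independent, and no test was made.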
